A study of Mus musculus with 140 samples.

Results

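The clusters described here are the 447566 m6A eCLIP clusters whose midpoint fell, on the same strand, in an annotated 5′ UTR and in no coding sequence or 3′ UTR of a protein-coding transcript (GENCODE vM21, mm10). They made up 6.48% of the 6907427 clusters listed in the 38 m6A immunoprecipitation (IP) libraries, and the series as a whole listed 13239113 clusters in 70 IP libraries. A cluster is an interval where IP reads pile up, and eCLIP scores it with a p and a log2 fold of IP over the input library made from the same RNA. Here a cluster with a p of 0.001 or less is called enriched. Of the 5′ UTR clusters, 185336 (41.4%) were enriched, and 9716 also passed the fold threshold of the study, a log2 fold over 3. The study also looked for peaks reproducible between male and female samples. That step was not applied here, nor where the study's thresholds are named below. The median 5′ UTR cluster was 52 nt long.

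The study set R6/2 mice, which carry a transgene of exon 1 of human huntingtin with an expanded CAG repeat under the human promoter, against non-transgenic (NT) mice at 3 months. Each genotype and region, striatum or cortex, had 8 m6A libraries, 4 from males and 4 from females, and 8 TDP-43 eCLIP libraries of the same make-up. A second experiment used C57Bl/6 males. Cortex of males that had a TDP-43 antisense oligonucleotide (ASO, 500 ug) injected into the ventricles at 5 weeks was set against cortex of PBS-injected males, 2 weeks after dosing, with 3 m6A libraries per treatment. The labels give the age of these males as 2 months. The labels of these samples name cortex while their treatment description names striatum, and the labels were followed. The R6/2 fragment is only a small piece of the protein, and all libraries are bulk tissue. In bulk tissue, fewer cells of a type, less RNA per cell and less modification per RNA cannot be told apart from the folds alone. The libraries are numbered within a group without a named animal, so p-values measure the spread between these libraries, and male and female libraries cannot be told apart from any batch that follows sex.

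N6-methyladenosine (m6A) is laid down by the Mettl3 and Mettl14 writer complex mostly at adenosines in a short consensus known as DRACH, of which GGACU is the most favoured form, and is classically densest around stop codons and in long internal exons. The 5′ UTR holds fewer sites, and those have been linked to cap-independent translation under stress. Antibodies to m6A also recognise m6Am, a related mark on an adenosine next to the cap, so clusters at the very start of a transcript can stem from either mark and these data cannot separate them. Because the 5′ UTR is the stretch a ribosome scans before the start codon, marks there lie beside upstream reading frames in genes such as Atf4 and Ppp1r15a.

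The 12 strongest 5′ UTR sites each held a form of the consensus. A site is a stretch where enriched clusters from 4 or more of the 32 R6/2 and NT m6A libraries coincide. The 12 5′ UTR sites with the highest mean log2 fold among those enriched in all 32 libraries are shown first. Sites of other classes were not ranked with them. Each is given as 21 bases of GRCm38/mm10 read 5′ to 3′ on the transcribed strand. Capitals mark the GGACU nearest to the middle of the site (T stands for U), and 8 of the 12 sites held one. Over the whole site, GGACU was found in 17.7% of all 5′ UTR sites, in 28.6% of those enriched in all 32 libraries and in 33.2% of those beyond 300 nt. The 12 sites were 71 to 643 nt long, against a median of 94 nt over all 5′ UTR sites, and the part of length was not tested.

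Tor1aip2, chr1:156051642-156051662, plus strand, exon 2: tctagactGGACTggtccctg
St3gal2, chr8:110957401-110957421, plus strand, exon 2: gctgagatGGACTgacctctg
Dtx1, chr5:120710589-120710609, minus strand, exon 2: cactgaggGGACTaagggatt
Gpr85, chr6:13838848-13838868, minus strand, exon 2: actggacaGGACTttgaagca
Dsel, chr1:111863400-111863420, minus strand, exon 2: accatgtaGGACTttgaacat
Pcdh17, chr14:84443871-84443891, plus strand, exon 1: ccgatgctGGACTttgtgaac
Gpr61, chr3:108151582-108151602, minus strand, exon 2: catcaccgGGACTgaccccgg
Ddx6, chr9:44607274-44607294, plus strand, exon 2: attgagcaGGACTtatttatc

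The other 4 held only other forms of the consensus, and capitals mark the commonest form present. Some form of DRACH was also found in 54.8% of 51-nt tiles over all annotated 5′ UTRs.

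Zrsr1, chr11:22972688-22972708, plus strand, exon 1: taagtgggTAACTgcgtggga
Gabbr1, chr17:37046197-37046217, plus strand, exon 1: aagctggaGGACCgggaggga
Extl3, chr14:65077781-65077801, minus strand, exon 3: tgtcagacAGACTcatggtta
Zfp260, chr7:30104560-30104580, plus strand, exon 2: gcttcactGGACActtgtgaa

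These sites lay far from the cap. Their midpoints were between 198 and 1092 spliced nt from the nearest transcription start, and 9 of the 12 lay in exon 2 or 3. Tor1aip2, which encodes a membrane cofactor of torsin ATPases, had the highest mean log2 fold, 4.26 ± 0.32 (SD, n = 32), over chr1:156051366-156051898. Its log2 folds were 4.29 ± 0.29 in R6/2 striatum and 4.22 ± 0.40 in NT striatum, and 4.33 ± 0.39 in R6/2 cortex and 4.20 ± 0.18 in NT cortex (SD, n = 8 each). St3gal2, a sialyltransferase, followed with 4.21 ± 0.27 and held 2 GGACU motifs. Dtx1, a ubiquitin ligase of the Notch pathway, had 3.97 ± 0.45, and Gpr85, an orphan receptor of neurons, had 3.95 ± 0.39. The SDs of neighbours in this order overlapped, so the order of the 12 is not settled. Zfp260, a zinc-finger protein, stood last of the 12 with 3.65 ± 0.38. Gabbr1, the GABA-B receptor subunit, had the largest gap between regions among them, with 4.20 ± 0.48 in R6/2 striatum and 4.12 ± 0.68 in NT striatum, and 3.66 ± 0.21 in R6/2 cortex and 3.48 ± 0.18 in NT cortex. Its site was also overlapped by an enriched TDP-43 cluster in 32 of 32 TDP-43 libraries. The number was 28 for St3gal2, 25 for Extl3, 18 for Dtx1, 4 for Zfp260 and 0 for Tor1aip2, Gpr85, Dsel, Zrsr1, Pcdh17, Gpr61 and Ddx6.

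The depth of each library is known only through its clusters. The number listed per m6A library ran from 137171 to 251880 and the number enriched from 56398 to 99040, and read numbers are unknown. Between 7203 and 17030 listed and between 2234 and 7774 enriched clusters per library lay in 5′ UTRs, on 1393 to 3406 genes. Of all enriched m6A clusters, 6.75% lay in 5′ UTRs, against 42.1% in coding sequence and 44.8% in 3′ UTRs. The region labels fitted the markers of their cells. The 31 genes of a medium spiny neuron list had 515 to 673 enriched clusters in NT striatum libraries and 218 to 280 in NT cortex libraries, and 19 of 20 cortical excitatory neuron genes had more in cortex, at 100 to 134 in NT striatum and 189 to 240 in NT cortex libraries. In the ASO experiment the medium spiny neuron list had 310 to 316 in ASO and 332 to 365 in PBS libraries, and the cortical list 277 to 280 in ASO and 272 to 284 in PBS libraries. In both lists these counts lay nearer to those of NT cortex than to those of NT striatum libraries. In the same experiment Tardbp, which encodes TDP-43, had 7, 8 and 9 enriched clusters in the ASO libraries, against 18, 17 and 25 in the PBS libraries, with no overlap, and 1, 2 and 2 of them lay in its 5′ UTR in ASO cortex, against 4, 3 and 5 in PBS cortex. Differences in cluster counts were common there. Of counts over all genes and classes 31.6% were called (limma adjusted p under 0.05), and 821 of the 1024 5′ UTR counts called were lower in ASO.

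A feature of the lists bears on every comparison of the ASO experiment. Any pair of libraries of the same treatment shared 99.22% to 99.31% of their 5′ UTR intervals exactly, whereas an ASO and a PBS library shared 3.46% to 3.49%, and R6/2 or NT libraries of 1 group and sex shared 0.94% to 2.17%. The same RNA stretch was thus divided differently in ASO and PBS lists, and the spread within a treatment leaves out what the drawing of intervals adds.

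Most clusters sat close to the cap, but the share that was enriched was highest far from it. Over the 38 libraries, 48.8% to 59.0% of the enriched 5′ UTR clusters lay within 100 spliced nt of the nearest annotated transcription start, and 82.8% to 87.5% lay in the first exon. The median distance was 77 to 104 nt for enriched and 71 to 82 nt for other listed clusters. Of the clusters within 20 nt of a start, a median of 42.6% over libraries were enriched, with a median log2 fold of 0.90. The share was 34.8% at over 100 and up to 200 nt, with a log2 fold of 0.61. It reached 53.3% at over 300 and up to 500 nt and 69.0% beyond 500 nt, where the log2 fold was 1.80. The profile was thus lowest between 100 and 200 nt, with a small shoulder at the cap and a larger one deep in long 5′ UTRs.

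The climb beyond 300 nt was seen in every group. In R6/2 striatum 63.0% ± 2.4 of the clusters beyond 300 nt and 41.3% ± 3.6 of those within 100 nt were enriched (SD, n = 8), a difference of 21.7 points. The difference was 22.2 points in NT striatum, 23.3 points in R6/2 cortex and 25.7 points in NT cortex, and it was above 0 in 8 of 8 libraries of each group (exact sign-flip test, two-sided, p = 0.00781, the smallest 8 libraries allow, adjusted p = 0.0142 over 40 such contrasts). In the ASO experiment 56.5% ± 0.95 beyond 300 nt and 33.8% ± 4.5 within 100 nt were enriched in ASO cortex, against 57.1% ± 1.4 and 41.2% ± 2.9 in PBS cortex (SD, n = 3 each), higher beyond 300 nt in 3 of 3 libraries of each treatment (exact p = 0.25, the smallest that 3 libraries allow). The shoulder at the cap was smaller. Clusters within 20 nt were enriched more often than those at over 100 and up to 200 nt by 8.12 points in R6/2 striatum and 7.58 points in NT striatum, and by 6.81 points in R6/2 cortex and 5.33 points in NT cortex, in 8 of 8 libraries of each group (exact sign-flip test, adjusted p = 0.0142). In NT cortex the share was as low at over 50 and up to 100 nt, 31.289%, as at over 100 and up to 200 nt, 31.334%. The shoulder was 2.51 points in ASO cortex, above 0 in 2 of 3 libraries, and 8.07 points in PBS cortex, above 0 in 3 of 3 (exact p = 0.5 and 0.25, the smallest 3 libraries allow being 0.25).

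TDP-43 clusters in 5′ UTRs did not have this profile. Beyond 300 nt they were enriched less often than within 100 nt by 3.10 points in R6/2 striatum, 3.68 points in NT striatum and 1.68 points in R6/2 cortex (8 of 8 libraries each, exact sign-flip test, adjusted p = 0.0142), and the difference of -0.98 points in NT cortex missed the threshold (adjusted p = 0.0544). Enriched TDP-43 clusters were also spread farther from the cap. In NT striatum the share within 100 nt had a lowest, median and highest value of 54.9%, 56.9% and 58.2% in m6A libraries, against 43.5%, 46.0% and 47.9% in TDP-43 libraries. All 64 pairs of an m6A and a TDP-43 library had the higher share in m6A, and the means differed by 10.9 points (exact permutation within sex, two-sided, p = 0.00041, the smallest this design allows, adjusted p = 0.00163 over 12 library tests). In NT cortex the difference was 10.9 points as well, 53.2% ± 3.4 against 42.3% ± 0.69 (SD, n = 8 each, exact permutation, adjusted p = 0.00163). Both differences changed sign when the limit was 200 nt or when the study's fold threshold was added, so they describe the first 100 nt and the lower threshold only.

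**Figure D1:**
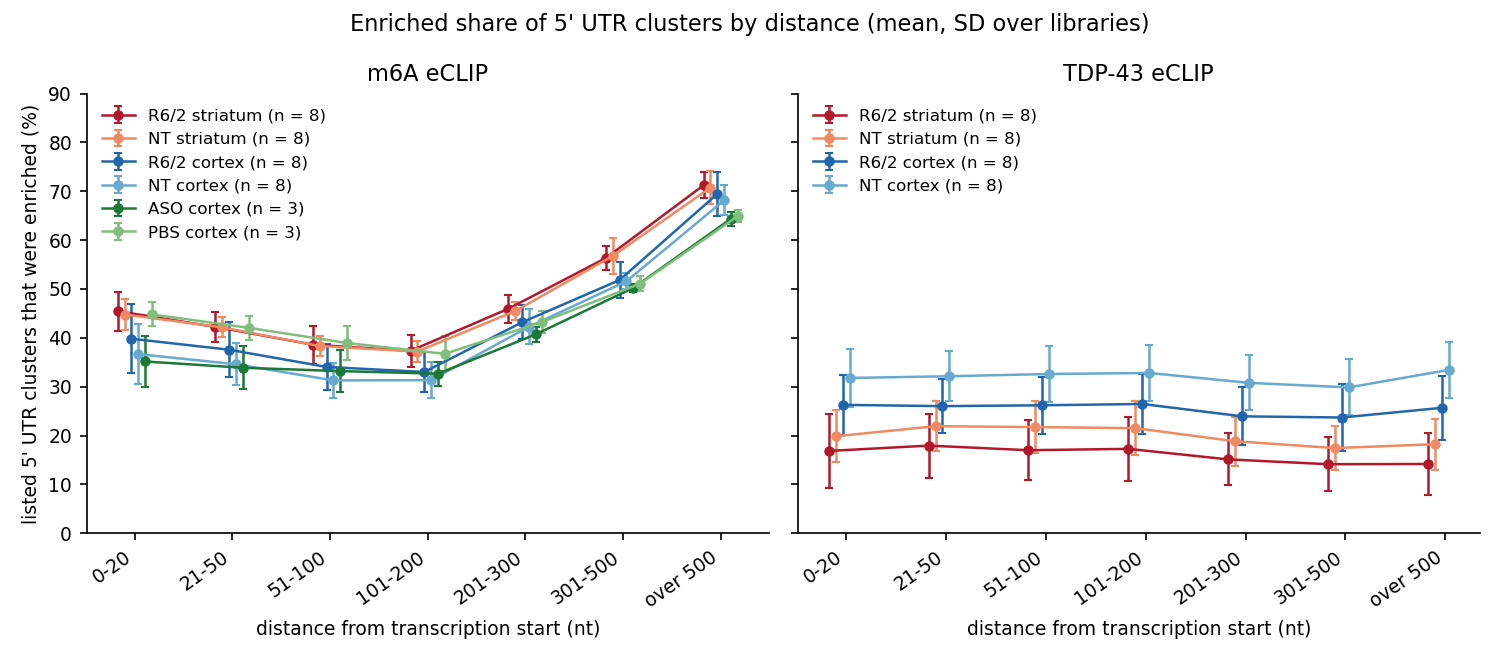
Share of listed 5′ UTR clusters that were enriched (y axis, percent) by distance of the cluster midpoint from the nearest transcription start (x axis, nt), for m6A and TDP-43 libraries. Points and bars are means and SDs over the libraries of each group; the m6A curves are lowest between 50 and 200 nt and reach 71.2% in R6/2 striatum and 70.7% in NT striatum beyond 500 nt, while the TDP-43 curves show no such climb.

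Set against the rest of the transcript, 5′ UTR clusters were enriched less often than 3′ UTR clusters. In R6/2 striatum 44.0% ± 3.1 of listed 5′ UTR clusters were enriched, against 56.3% ± 5.6 of 3′ UTR clusters (SD, n = 8). The difference was -12.3 points there, -11.4 points in NT striatum, -15.2 points in R6/2 cortex and -14.3 points in NT cortex, lower in 8 of 8 libraries of each group (exact sign-flip test, adjusted p = 0.0142). Against coding sequence the difference in NT cortex was -2.92 points (exact sign-flip test, adjusted p = 0.0142), while differences of 1.45 points in R6/2 striatum, 0.85 points in NT striatum and -1.85 points in R6/2 cortex did not pass (adjusted p = 0.506, 0.559 and 0.0651, exact sign-flip test). In striatum the sexes ran opposite ways. The share was lower in 5′ UTRs than in coding sequence in all 4 male libraries of each genotype, as in R6/2 male 4 with 40.3% against 45.1%, and higher in all 4 female libraries, as in R6/2 female 2 with 50.2% against 41.4%.

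The 5′ UTR sites numbered 4563 of 44343 sites of all classes (10.3%) and lay on 3759 genes. Of these genes, 3142 had 1 site and 731 (19.4%) had no site in coding sequence or the 3′ UTR. Of the sites, 4118 (90.2%) lay in exon 1, 384 in exon 2 and 61 in a later exon. Within 100 nt of a start lay 2796 sites (61.3%), where 44.8% of annotated 5′ UTR bases lie, and beyond 300 nt lay 735 (16.1%), against 19.9% of the bases. The median site was 94 nt long, 76 nt from the start of transcription and 127 nt from the start codon. Few sites were found in every library. Enriched clusters of all 32 libraries met at 828 of the 5′ UTR sites (18.1%), against 40.0% of coding sequence and 46.4% of 3′ UTR sites. The share was 14.7% within 100 nt and 29.3% beyond 300 nt. The median of the mean log2 fold ran the same way, 1.28 over all 5′ UTR sites, 1.18 within 100 nt and 1.79 beyond 300 nt, against 1.95 in coding sequence and 1.83 in 3′ UTRs. Beyond 300 nt, the 541 sites in exon 1 had a median of 1.71 and the 194 in later exons one of 2.21. These are descriptions of sites chosen for being enriched. Longer sites can be met by a cluster more easily. The median length was 149 nt in coding sequence and 177 nt in 3′ UTRs, and 90 nt within 100 nt and 118 nt beyond 300 nt in 5′ UTRs. The part of length in these contrasts was not tested.

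At the level of genes the spread was wide. An enriched 5′ UTR cluster was found in at least 1 of the 32 libraries for 5881 genes, in 16 or more for 2398, in all 32 for 787 and in a single library for 926.

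A few genes carried many 5′ UTR sites. Pcdh17, a protocadherin of synapse assembly, had 10 sites between 38 and 2430 nt from its start, and 3 of them were enriched in all 32 libraries. Its 2 highest stood at 379 nt, with a log2 fold of 3.89 ± 0.31, and at 2430 nt, 102 nt before the start codon, with 3.21 ± 0.31 (SD, n = 32). Homer1, which encodes a postsynaptic scaffold and a short activity-induced form, had 8 sites, with folds between 0.64 and 3.59. The highest, at chr13:93304984-93305257 and 177 nt before the start codon, was enriched in all 32 libraries. Its midpoint lay 18 nt from the nearest of several annotated starts of the gene. A further 9 genes had 5 sites each. Hexim1, an inhibitor of transcription elongation, had log2 folds of 2.21 at 30 nt, 1.37 at 227 nt, 1.79 at 288 nt, 1.95 at 381 nt and 3.05 ± 0.18 at 580 nt, 111 nt before the start codon. Brd2, a bromodomain protein, had all of its sites in exon 2, 451 to 1492 nt from the start, and 3 of them in all 32 libraries. Adcy5, the main adenylyl cyclase of medium spiny neurons, had folds between 0.41 and 2.19, the highest 995 nt from the start. The others were Pcdh19, Lpar6, Slit2, Gpm6a, Zfp30 and Neto1, with highest folds between 1.59 and 3.04.

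**Figure D2:**
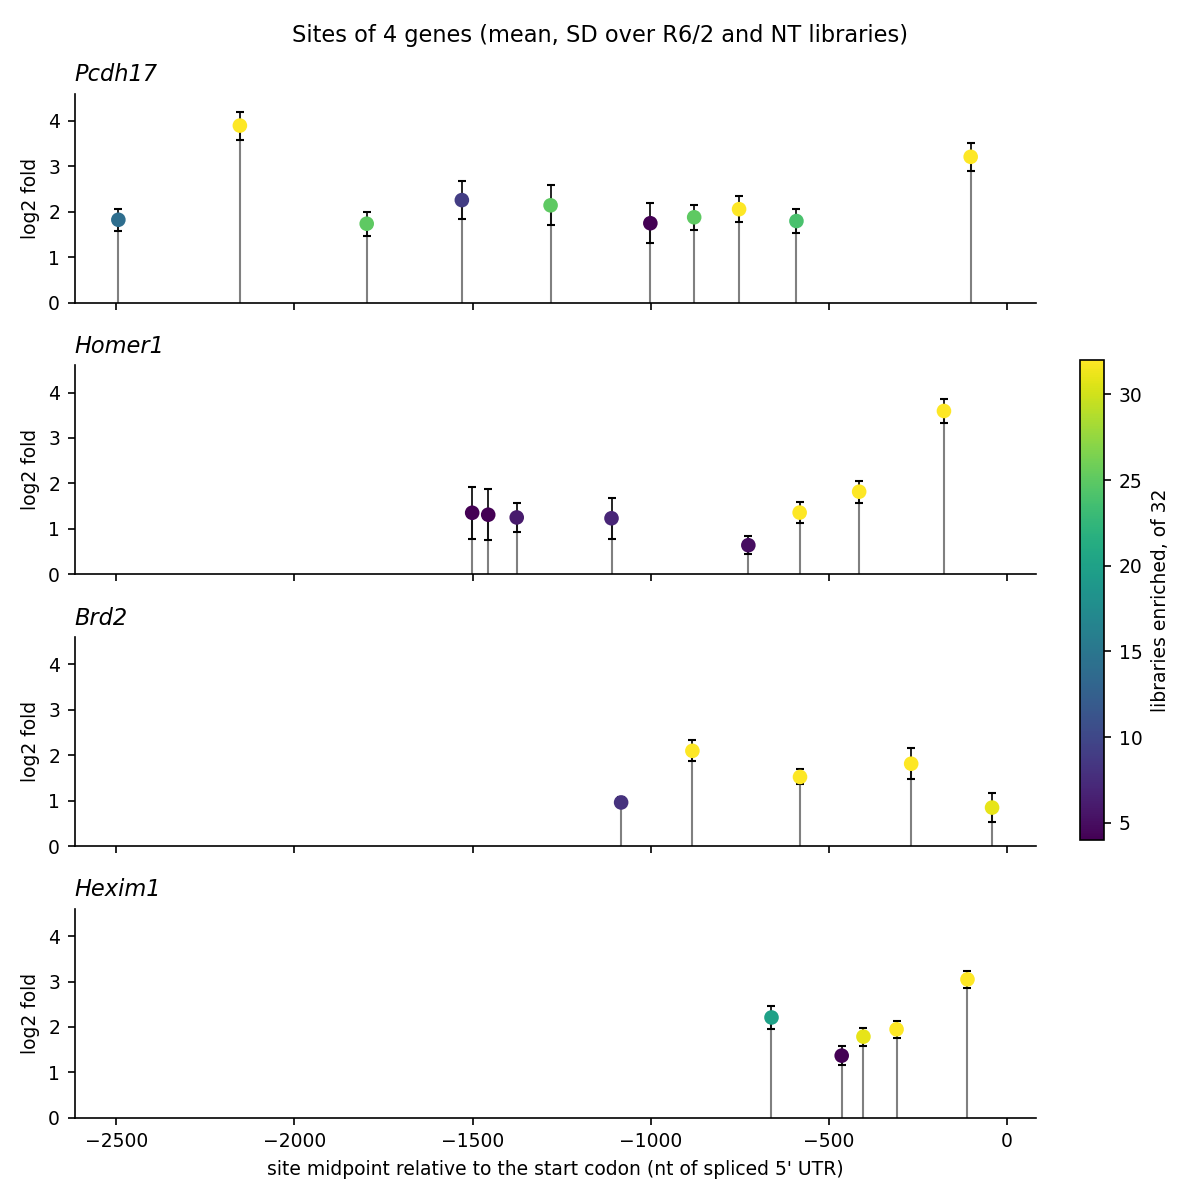
Mean log2 fold of IP over input (y axis) of each 5′ UTR site of 4 genes against the position of its midpoint before the start codon (x axis, nt of spliced 5′ UTR). Bars are SDs over R6/2 and NT libraries with a value and colour gives the number of the 32 libraries in which the site was enriched; the highest site of Homer1, at 3.59, lies 177 nt before the start codon.

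The consensus followed the distance. Windows of 51 nt around the midpoint were searched on the transcribed strand for GGACU and for DRACH, which contains it. GGACU was found in 10.3% of 5′ UTR sites, against 12.8% of coding sequence sites and 15.998% of 3′ UTR sites. Tiles of the same length over all annotated 5′ UTRs held it in 5.64% of 119480 cases. Within 100 nt of a start 7.01% of sites and 5.73% of tiles held GGACU, and beyond 300 nt 17.4% of sites and 5.10% of tiles did. By these shares the motif stood close to the level of the tiles near the cap and above it deep in the 5′ UTR. Site windows were cut from the genome, and those of the 473 sites within 20 nt of a start reached past that start. Tiles lay wholly inside annotated 5′ UTR exons, whether or not the gene had a site. The part of these differences in the shares was not tested. DRACH was found in 53.2% of 5′ UTR sites and 54.8% of tiles, against 77.3% of coding sequence sites and 81.5% of 3′ UTR sites. With the 5′ UTR sites split into 4 equal parts by mean log2 fold, GGACU was found in 6.05%, 7.72%, 11.1% and 16.4% from the lowest part to the highest. The GC content was 66.0% in sites within 100 nt and 58.4% in sites beyond 300 nt, and its part in the motif shares was not tested.

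Within each library the same comparison was made between enriched and other listed 5′ UTR clusters. The median share with GGACU over the 38 libraries was 9.88% of enriched and 6.54% of other clusters, higher among the enriched in 38 of 38. Beyond 300 nt it was 15.6% and 9.20% (38 of 38 libraries), and within 100 nt 6.34% and 5.70% (34 of 38). In R6/2 striatum 9.78% ± 0.66 of enriched and 6.34% ± 0.31 of other clusters held it, and in NT striatum 9.70% ± 0.36 and 6.61% ± 0.24 (SD, n = 8 each, exact sign-flip test, p = 0.00781, adjusted p = 0.00938 over 12 tests). Within 100 nt the difference passed in striatum, at 0.58 points in R6/2 and 0.77 points in NT (exact adjusted p = 0.00938), but not in cortex, at 0.35 points in R6/2 and 0.36 points in NT (exact adjusted p = 0.141). Enriched TDP-43 clusters ran the other way. Their median share with GGACU was 4.00%, against 5.62% of other TDP-43 clusters, higher among the enriched in 0 of 32 libraries, and their GC content was 74.9% against 65.5%.

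**Figure D3:**
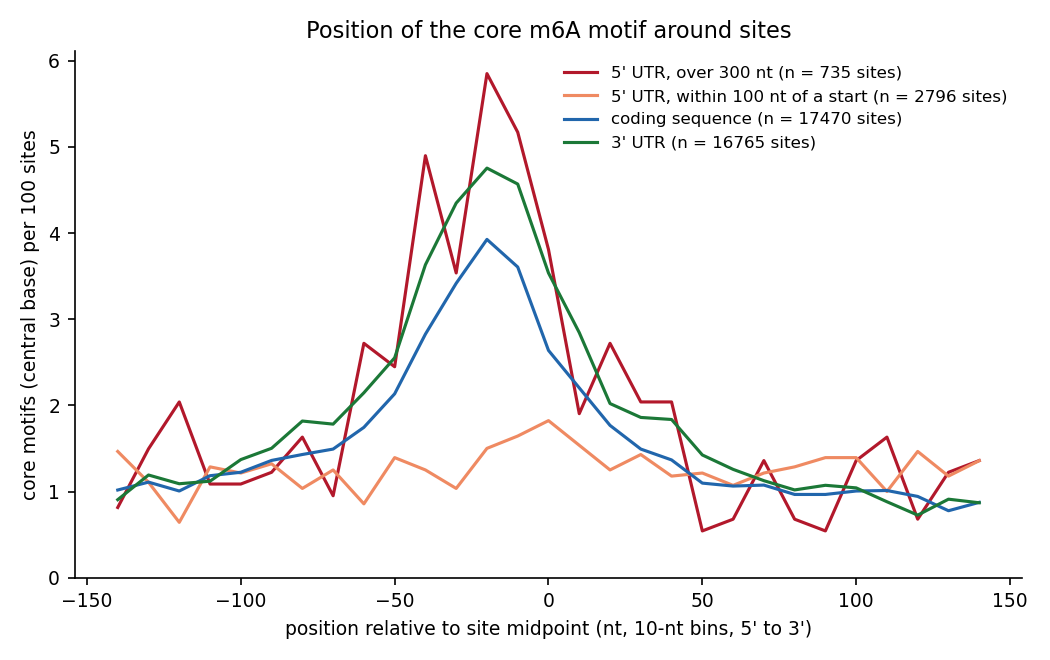
Number of core motifs, by their central base, per 100 sites (y axis) in 10-nt bins around the site midpoint (x axis, nt, 5′ to 3′), for 5′ UTR sites within 100 nt and beyond 300 nt of a start and for sites in coding sequence and 3′ UTRs. The 5′ UTR sites beyond 300 nt reach 5.85 per 100, 20 nt before the midpoint.

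The first base of the transcript bears on m6Am, which needs an A there. The first transcribed base was A in 30.9% of 58784 protein-coding transcripts, in 29.1% of 1465 sites within 50 nt and in 20.1% of 473 sites within 20 nt. Among sites within 50 nt the median log2 fold was 1.28 where that base was A, 1.32 where it was U, 1.18 where it was C and 1.12 where it was G. Annotated starts need not be the starts used in these tissues, so these shares describe the annotation.

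Enriched TDP-43 clusters of at least 4 of 32 libraries overlapped 920 of the 5′ UTR sites (20.2%), against 19.0% of coding sequence and 19.2% of 3′ UTR sites, and 4.02% of noncoding exon and 3.74% of intron sites. Median site lengths were 94 nt in 5′ UTRs, 149 nt in coding sequence and 177 nt in 3′ UTRs. The part of length in these shares was not tested.

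The study asked how m6A differs between R6/2 and NT brain. At the level of the library, no difference in the weight of the 5′ UTR passed the test. In striatum 6.93% ± 0.73 of enriched clusters lay in 5′ UTRs in R6/2 libraries and 6.70% ± 0.99 in NT libraries (SD, n = 8 each, exact permutation within sex, p = 0.379, adjusted p = 0.414). In cortex the lowest, median and highest shares were 4.53%, 6.94% and 8.30% in R6/2 libraries, against 3.96%, 5.85% and 8.14% in NT libraries. The groups overlapped over most of their range, and the difference of 0.75 points did not pass (exact permutation, p = 0.0539, adjusted p = 0.0924). Male libraries had the higher means in both genotypes. In cortex, males averaged 8.03% ± 0.28 and females 5.57% ± 0.75 in R6/2, and males 7.26% ± 0.98 and females 4.84% ± 0.76 in NT (SD, n = 4 each).

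The share within 100 nt of a start was higher in R6/2 cortex, at 55.4% ± 3.0 of enriched 5′ UTR clusters, against 53.2% ± 3.4 in NT cortex (SD, n = 8 each). The difference of 2.20 points passed (exact permutation within sex, p = 0.00449, adjusted p = 0.0108), with R6/2 higher in 45 of 64 pairs. By sex it was 58.0% ± 1.1 in R6/2 males and 56.2% ± 1.4 in NT males, and 52.9% ± 1.4 in R6/2 females and 50.3% ± 1.0 in NT females. Leaving out 1 library ended the call in 8 of 16 cases, with differences between 1.67 and 2.89 points. It also missed the threshold without sex strata, in either sex alone, with a limit of 50 nt (1.10 points) and at the study's thresholds (1.14 points). In striatum the shares were 56.7% ± 1.4 in R6/2 and 56.7% ± 1.2 in NT, and the difference was 0.04 points (exact permutation, p = 0.954).

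**Figure D4:**
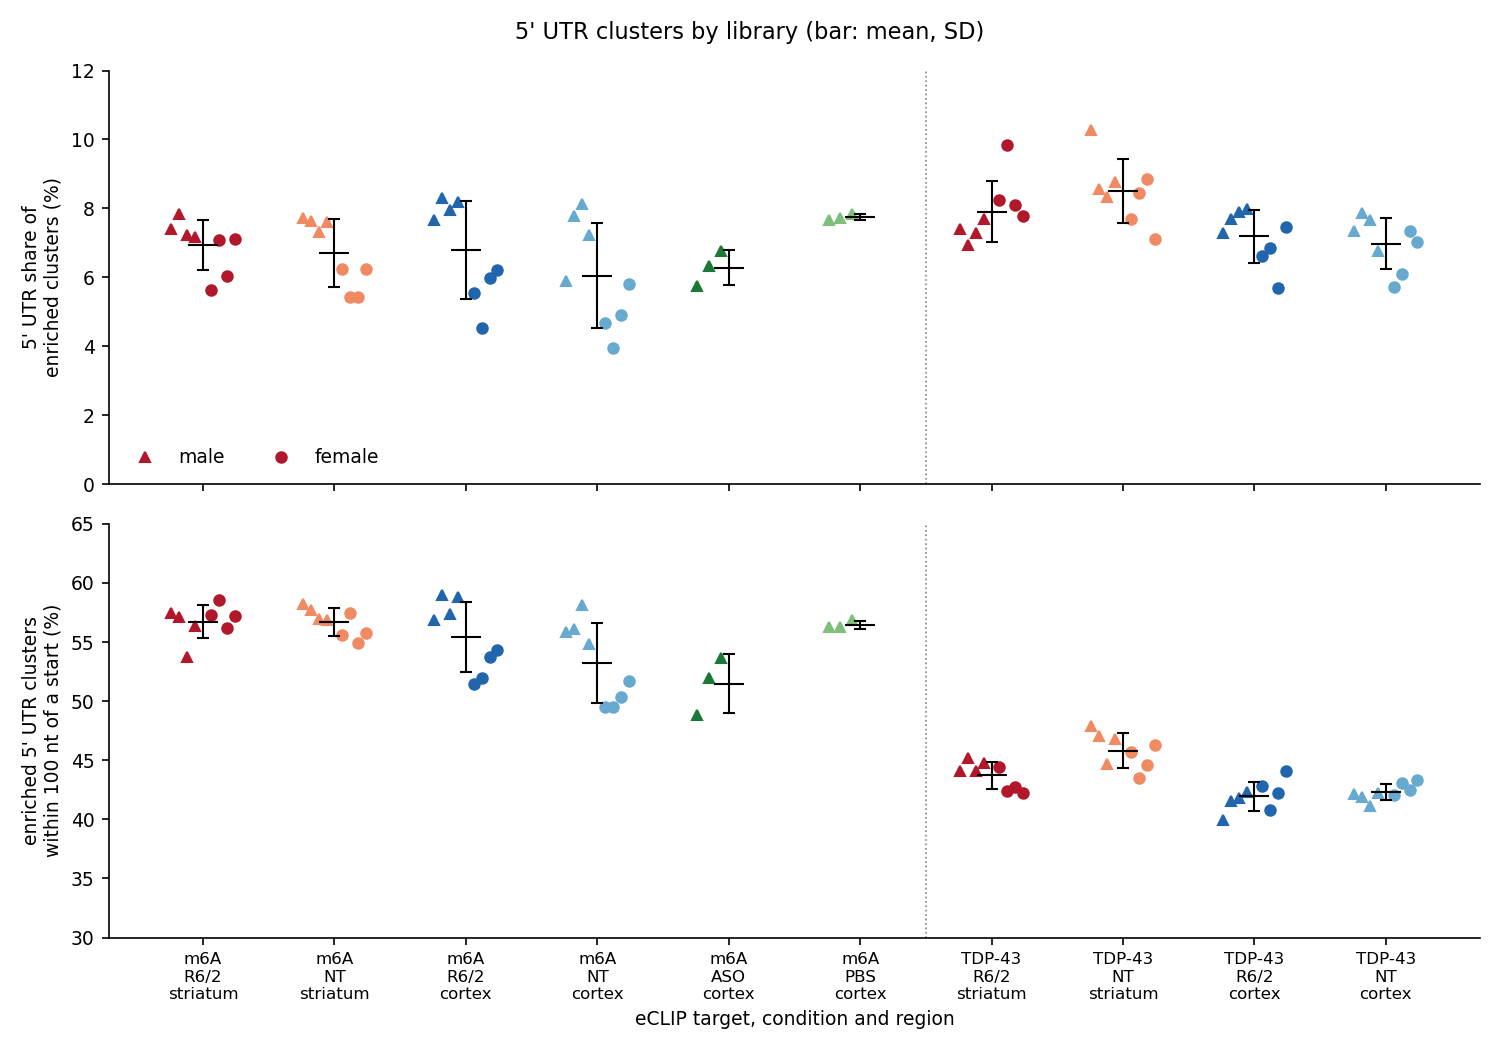
5′ UTR share of enriched m6A clusters and share of enriched 5′ UTR clusters within 100 nt of a start (y axes, percent) in each library, by group (x axis). Points are libraries and the bar and line are the mean and SD; R6/2 and NT overlap in both regions, while the 3 ASO libraries lie below the 3 PBS libraries in both measures.

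Single sites were compared through the log2 fold of the overlapping cluster with the lowest p, centred in each library and fitted with limma over the sites of all classes, with sex as a covariate. In striatum 3456 5′ UTR sites had enough values, and 2 of them (0.0579%) passed an adjusted p of 0.05, against 0.176% of 35192 sites of all classes (0.0256% higher and 0.151% lower in R6/2). At an unadjusted p under 0.05 there were 303 (8.77%), against 8.996% of all sites. The share of 5′ UTR sites called was thus no higher than that of all sites.

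Scn4b, the β4 sodium channel subunit and a marker of medium spiny neurons, fell. Its site at chr9:45138554-45138752, in exon 1, 258 nt from the start, had a lowest, median and highest log2 fold of 1.05, 1.23 and 1.60 in R6/2 striatum, against 1.48, 1.70 and 1.98 in NT striatum. The ranges overlapped slightly, with R6/2 higher in 4 of 64 pairs, and the change was -0.44 (SE 0.083, limma adjusted p = 0.042). The same gene had 4 sites in its 3′ UTR with changes between -0.82 and -0.15, of which 1 was called. The chosen clusters had a median length of 65 nt in R6/2 and 14 nt in NT libraries, and with the mean fold of all overlapping clusters the change was -0.34 and missed the threshold (limma adjusted p = 0.085). Its consensus form, shown as 21 bases with the DRACH match in capitals, reads as follows.

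Scn4b, chr9:45138655-45138675, plus strand: cccaggctGGACCctacggcc

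Ppp3cc, a catalytic subunit of the phosphatase calcineurin, rose. Its site at chr14:70289350-70289449, in exon 1 and 71 nt from the start, had 0.81, 1.11 and 1.71 as lowest, median and highest log2 fold in R6/2 striatum, against 0.14, 0.63 and 0.78 in NT striatum. The groups did not overlap, and the change was 0.66 (SE 0.129, limma adjusted p = 0.0499). It held no DRACH match. The cluster itself was enriched in 3 of 8 R6/2 and 0 of 8 NT libraries, and cluster lengths were alike, 101.5 nt and 92.5 nt. Other sites with a low p missed the threshold. Arl3, a small GTPase of cilia, had 1.58 ± 0.33 in R6/2 and 0.95 ± 0.40 in NT (SD, n = 8 each, limma adjusted p = 0.0589). Ppp1r1b, which encodes DARPP-32, had 1.19 ± 0.20 in R6/2 and 1.60 ± 0.12 in NT (limma adjusted p = 0.080). With 1 library left out in turn, Scn4b stayed called in 1 of 16 cases and Ppp3cc in 2 of 16.

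In cortex 1 of 3327 5′ UTR sites (0.0301%) was called, against 0.0575% of 34772 sites of all classes (0.0173% higher and 0.0403% lower in R6/2), and 334 (10.04%) had an unadjusted p under 0.05, against 9.18%. The site lay in Map2, the dendritic microtubule-binding protein, at chr1:66321998-66322142, 351 nt from the start in exon 1. Its lowest, median and highest log2 folds were 0.93, 1.72 and 1.93 in 7 R6/2 libraries, against 0.23, 0.83 and 1.34 in 7 NT libraries, the other library of each group having no value. R6/2 was higher in 47 of 49 pairs and the change was 0.81 (SE 0.121, limma adjusted p = 0.023). With 1 library left out it stayed called in 7 of 16 cases. It rested on short clusters, with a median of 21 nt in R6/2 and 38 nt in NT, and with the mean of all overlapping clusters the change was 0.24 (limma adjusted p = 0.379). The 9 coding sequence sites of Map2 had changes between -0.05 and 0.16. The 21 bases around its consensus form are given here.

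Map2, chr1:66322050-66322070, plus strand: gcgacacaGAACAgagggagt

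The next sites by p, in Unc79, Psmd1, Actr1b and Pex2, missed the threshold (limma adjusted p between 0.086 and 0.111). Psmd1, a subunit of the proteasome cap, had 0.60 ± 0.16 in R6/2 and 1.27 ± 0.36 in NT cortex (SD, n = 8 each), with no overlap. Actr1b, of the dynactin complex, had 0.79 ± 0.31 in R6/2 and 0.17 ± 0.24 in NT cortex.

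By gene list, described by counts beside the same over all 5′ UTR sites, the medium spiny neuron genes leaned down in R6/2 striatum. The 21 tested sites on 19 of 31 genes had a median change of -0.14, 6 lay above 0 and Scn4b alone was called, against a median of -0.02 and 46.3% above 0 over all 3456 sites. The 195 lower genes of a striatal signature of Huntington's disease (HD), which the study took from earlier work on HD mouse models, had a median of -0.10 over 71 sites, 24 of them above 0, again with Scn4b the only call. In R6/2 cortex the 2 lists had medians of -0.04 and -0.06, against 0.04 over all 3327 sites. Immediate early genes, induced by neuronal activity, had a median of -0.07 over 14 sites in striatum and of -0.09 over 14 sites in cortex, where 3 lay above 0. Among their sites, that of Homer1 at 3.59, of Fosb at 2.96 and of Jun at 2.65 had the highest log2 folds over the 32 libraries. Genes with upstream reading frames or stress-controlled translation had 10 tested sites and a median of -0.09 in striatum and 0.09 in cortex. Of these, Atf4, the transcription factor of the integrated stress response, had 2.10 ± 0.45 in exon 2, Atf5 had 2.07 ± 0.23 at 29 nt and Ppp1r15a, a phosphatase cofactor of the same response, had 1.89 ± 0.35, each enriched in all 32 libraries. The m6A machinery itself had sites in Hnrnpc, at 2.45 ± 0.27, Wtap, at 1.82 ± 1.05, Ythdc1, at 1.74 ± 0.31, and Hnrnpa2b1, at 1.69 ± 0.26, a median change of -0.07 in striatum and 0.20 in cortex and no call at an adjusted p of 0.05 (limma). Heat shock genes had 9 tested sites with medians of 0.03 and 0.06. Astrocyte, oligodendrocyte, microglia and GABA interneuron markers had medians between -0.02 and 0.11 in striatum and between -0.03 and 0.17 in cortex, over 3 to 8 sites each.

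When enriched clusters were counted per gene instead, more 5′ UTRs passed. In striatum 48 of 2648 genes (1.81%) were called, 23 higher and 25 lower, against 4.21% of all genes and classes, and in cortex 39 of 2256 (1.73%), 27 higher and 12 lower, against 3.06%. These shares, too, were below the background. The genes named next were chosen after their values were seen. A gene was tested where a share of at least 0.5 of the libraries of a comparison held an enriched cluster. Genes with none in 1 group thus entered only through the other group, and their p-values are not given. Atp6v1g2, a vacuolar proton pump subunit of neurons, had 1 to 4 enriched 5′ UTR clusters in each of 8 R6/2 libraries and none in 8 NT libraries, in striatum and again in cortex. Only 1 of 8 NT libraries of each region listed any cluster there. Prima1, which anchors acetylcholinesterase, had an enriched cluster in 1 of 8 R6/2 striatum libraries, against 2 to 4 in each of 8 NT libraries. Rasgrp2, an exchange factor for Rap1 that is abundant in striatum, had one in 1 of 8 R6/2 libraries, against 1 to 6 in each of 8 NT libraries. Mean log2 folds of these genes are means, over libraries that listed a cluster, of the median fold of the gene's listed 5′ UTR clusters. Rasgrp2 was listed in all 8 R6/2 libraries, with a mean log2 fold of 0.35, against 0.713 in NT, and Prima1 in 2 of 8. Etnppl, an enzyme of astrocytes, and Kcnh4, a potassium channel, had 0 of 8 in R6/2 and 8 of 8 in NT striatum, although the Etnppl cluster was listed in all 8 R6/2 libraries with a mean log2 fold of 1.57, against 1.46 in NT. That of Kcnh4 was listed in 6 of 8 R6/2 libraries, at 1.277, against 1.637 in NT. In cortex Cdca3 and Xpo7 had enriched clusters in 8 of 8 R6/2 and 0 of 8 NT libraries and were listed in all 16, Cdca3 with a mean log2 fold of 1.90 in R6/2 and 1.79 in NT and Xpo7 with 1.01 in R6/2 and 0.645 in NT.

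The ASO comparison addressed whether lowering TDP-43 changes m6A. The 5′ UTR share of enriched clusters was 5.75%, 6.33% and 6.77% in ASO cortex, against 7.67%, 7.71% and 7.85% in PBS cortex. All ASO libraries lay below all PBS libraries, a difference of -1.46 points (exact permutation, two-sided, p = 0.1, the smallest that 3 against 3 allows, adjusted p = 0.12). The share within 100 nt of a start was 48.8%, 52.0% and 53.7% in ASO, against 56.2%, 56.3% and 56.9% in PBS cortex, a difference of -4.96 points (exact permutation, p = 0.1). Listed 5′ UTR clusters differed the same way, 14049 to 14054 in ASO lists, against 17021 to 17030 in PBS lists, and the part of this in the shares was not tested. The median 5′ UTR cluster was 47 to 50 nt long in ASO and 37 nt in PBS lists.

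Of 3838 5′ UTR sites, 2 (0.0521%) were called, both lower, against 0.0103% of 38939 sites of all classes, and 571 (14.9%) had an unadjusted p under 0.05, against 11.6%. The median change of 5′ UTR sites was -0.14, against 0.00 over all sites. Rps15a, of the small ribosomal subunit, had log2 folds of -1.05, -0.86 and -0.71 in ASO cortex, against 1.92, 2.25 and 2.37 in PBS cortex, at chr7:118116172-118116188, 8 nt from the start (change -3.05, SE 0.173, limma adjusted p = 0.0089). Gpi1, glucose-6-phosphate isomerase, had -0.53, -0.59 and -0.22 in ASO cortex, against 2.22, 1.75 and 2.06 in PBS cortex, at chr7:34230277-34230319 (change -2.45, SE 0.184, limma adjusted p = 0.030). The groups lay far apart at both sites. The interval behind the value was 37 nt long in ASO and 23 nt in PBS lists for Rps15a, and 84 nt and 15 nt for Gpi1. With the mean of all overlapping clusters Gpi1 had a change of -1.56 and missed the threshold (limma adjusted p = 0.14), while Rps15a kept -3.08 (limma adjusted p = 0.016). The same contrast in length stood behind H2afv, 90 nt and 6 nt, Rpl28, 46 nt and 5 nt, and Stub1, 27 to 46 nt and 7 nt, which had changes of -2.08, -2.04 and -1.40 and missed the threshold (limma adjusted p between 0.0704 and 0.074). Leaving out 1 library kept the call of Rps15a in 2 of 6 cases and that of Gpi1 in 0 of 6.

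The count of enriched clusters per gene called 1024 of 3079 5′ UTRs (33.3%), 203 higher and 821 lower, against 31.6% of all genes and classes. That share was near the background, and the intervals that differ by treatment enter each of these counts. Oligodendrocyte genes had a median site change of -0.30 and 1 of 8 above 0, astrocyte genes -0.24 and 0 of 5, microglia genes -0.40 and 1 of 3, and cortical excitatory neuron genes 0.13 and 7 of 12, against -0.14 and 33.1% above 0 over all 5′ UTR sites. No site of any list was called there (limma adjusted p under 0.05).

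Striatum and cortex of NT mice differed at 13 5′ UTR sites. Of 3206 sites, 13 (0.405%) were called, all of them higher in striatum, against 0.201% of 34301 sites of all classes in either direction, 0.155% higher and 0.0466% lower in striatum. At an unadjusted p under 0.05 there were 471 (14.7%), against 11.3% of all sites. The median change over 5′ UTR sites was 0.07. Of the 13, 3 lay on medium spiny neuron genes, Ppp1r1b, Pde1b and Rasgrp2, and 5 on the HD striatal down list, which share members.

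Hpf1, which directs PARP enzymes to serine, had the smallest adjusted p. Its site, chr8:60890428-60890538 and 32 nt from the start, had a lowest, median and highest log2 fold of 1.08, 1.43 and 1.86 in NT striatum, against 0.04, 0.46 and 0.73 in NT cortex, without overlap (change 1.05, SE 0.132, limma adjusted p = 0.0024). With the mean of all overlapping clusters its change was 0.505 (limma adjusted p = 0.030). Smpd3, neutral sphingomyelinase 2, had 1.94, 2.55 and 2.94 in striatum, against 1.27, 1.60 and 1.78 in cortex, at chr8:106265869-106266074 in exon 2, 236 nt from the start (change 0.93, SE 0.124, limma adjusted p = 0.0035). Its coding sequence site moved with it, by 1.04 (limma adjusted p = 0.00102). Nkain1, a partner of the sodium pump, had 0.91, 1.59 and 2.50 in striatum, against 0.12, 0.40 and 0.78 in cortex (change 1.18, SE 0.161, limma adjusted p = 0.0036). Strn, striatin, had 1.01, 1.18 and 1.83 in striatum, against -0.14, 0.32 and 0.48 in 6 cortex libraries with a value (change 1.09, SE 0.156, limma adjusted p = 0.0077). All 4 sites were enriched in 8 of 8 striatum libraries, and in cortex Hpf1 was enriched in 1 of 8, Nkain1 and Strn in none and Smpd3 in 8 of 8.

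Further called sites changed by less. Ppp1r1b, or DARPP-32, the dopamine-regulated phosphatase inhibitor of medium spiny neurons, had 1.31, 1.60 and 1.70 as lowest, median and highest in striatum, against 0.66, 0.91 and 1.24 in cortex (change 0.62, SE 0.102, limma adjusted p = 0.018), and its coding sequence site rose by 0.43 (limma adjusted p = 0.021). Pde1b, the calmodulin-dependent phosphodiesterase, had a change of 0.68 with some overlap, striatum being higher in 53 of 64 pairs. Rasgrp2 had 0.37 ± 0.22 in striatum and -0.47 ± 0.37 in cortex (SD, n = 8 each), a change of 0.84 between low folds. Rnf13, Camk2n1, Sh2d5, Agap1 and Galt had changes between 0.59 and 0.69 (limma adjusted p between 0.0068 and 0.040). Of these genes Camk2n1 encodes an inhibitor of CaMKII, Agap1 an Arf GTPase-activating protein and Galt an enzyme of galactose metabolism. With 1 library left out, Rnf13 stayed called in 6 of 16 cases, Sh2d5 in 7, Agap1 in 5 and Galt in 4, and the other sites named here in every case with enough values.

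Cluster lengths differed between regions at many of these sites. With the mean of all overlapping clusters Smpd3 (0.19), Ppp1r1b (0.15) and Pde1b (0.32) missed the threshold (limma adjusted p = 0.34, 0.336 and 0.065), and their median lengths were 22 nt in striatum and 128 nt in cortex, 29 nt and 98.5 nt, and 23.5 nt and 142 nt. Hpf1 (14 nt and 108.5 nt), Rasgrp2 (39.5 nt and 131 nt), Sh2d5 (14 nt and 46 nt) and Strn (46 nt and 88.5 nt) also differed in length and passed with that mean, at 0.505, 0.80, 0.61 and 0.82 (limma adjusted p between 0.0051 and 0.043). Nkain1 (59.5 nt and 84.5 nt), Agap1 (119 nt and 143.5 nt), Galt (117.5 nt and 95 nt) and Rnf13 (89 nt and 85 nt) had lengths closer to each other and passed at 1.04, 0.59, 0.69 and 0.58 (limma adjusted p between 0.011 and 0.043). The part of length in these changes was not tested.

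The DRACH matches of 4 of these sites, of which that of Rnf13 and that of Agap1 are GGACU, are shown as 21 bases with the match in capitals.

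Smpd3, chr8:106265951-106265971, minus strand: gctgccacGGACAccatgtag
Rnf13, chr3:57736184-57736204, plus strand: ccgggggcGGACTtcaggtaa
Agap1, chr1:89580987-89581007, plus strand: cgcgcctgGGACTtccgcgcc
Ppp1r1b, chr11:98348762-98348782, plus strand: tgggggatAGACAgaagctgg

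No DRACH match lay in the sites of Nkain1, Strn, Rasgrp2, Camk2n1 and Sh2d5, nor in those of Rps15a and Gpi1.

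**Figure D5:**
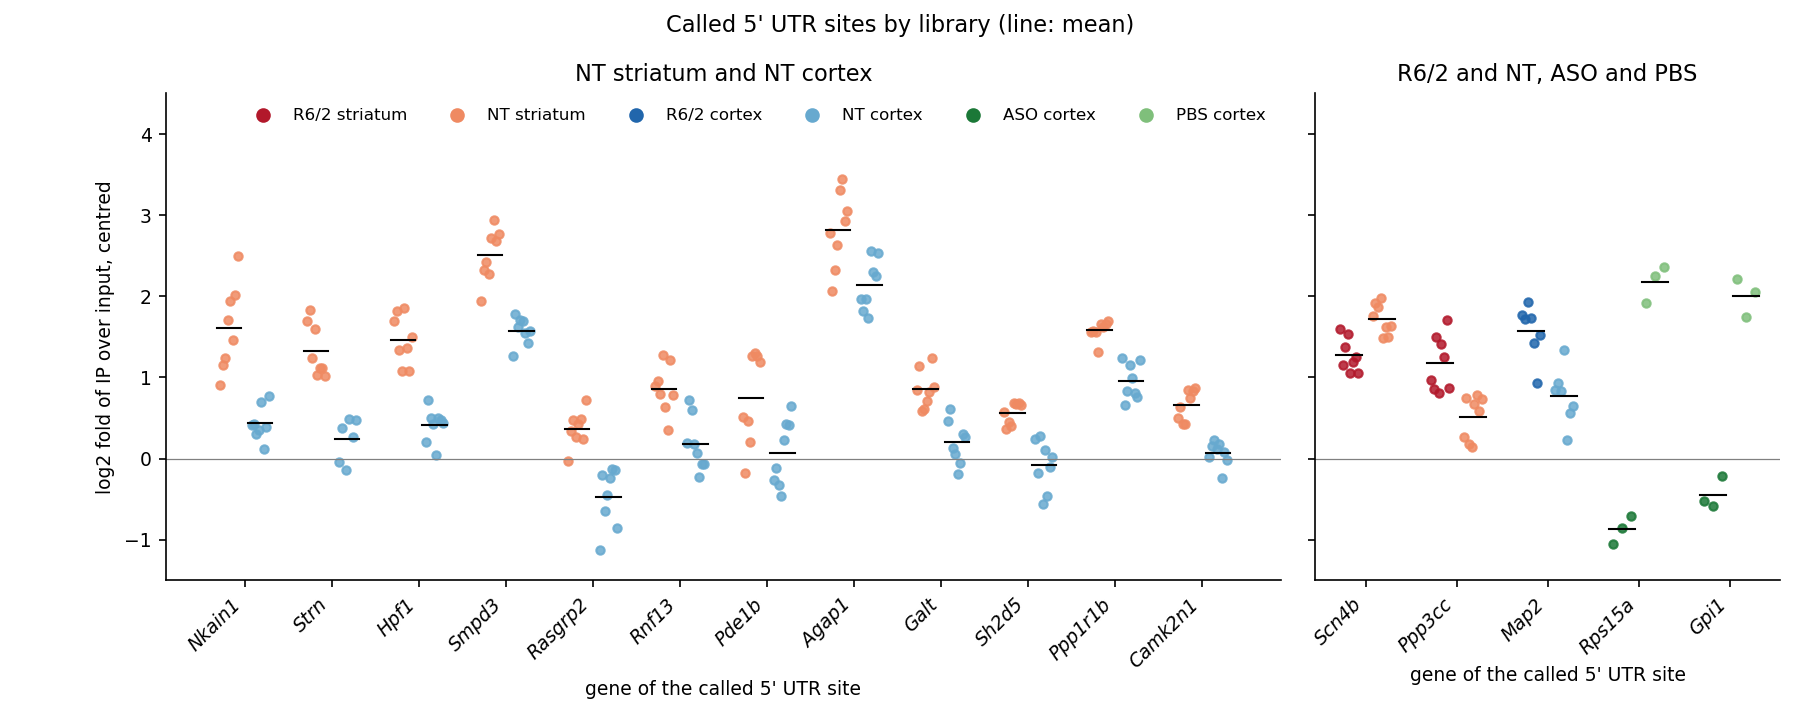
Centred log2 fold of IP over input (y axis) of the called 5′ UTR sites named here, in each library with a value, NT striatum beside NT cortex in the left panel and R6/2 beside NT or ASO beside PBS in the right panel. Points are libraries and lines are means; the values of Hpf1 do not overlap between NT striatum and NT cortex.

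At the level of the library, striatum had the larger share of 5′ UTR clusters near the cap. Within 100 nt of a start lay 56.7% ± 1.2 of enriched 5′ UTR clusters in NT striatum and 53.2% ± 3.4 in NT cortex (SD, n = 8 each, difference 3.46 points, exact permutation within sex, p = 0.00245, adjusted p = 0.00735), with striatum higher in 51 of 64 pairs. By sex the means were 57.4% in males and 55.9% in females of striatum, against 56.2% and 50.3% in cortex, and the difference missed the threshold in either sex alone (1.24 points in males and 5.68 in females) and at the study's thresholds (3.16 points). The 5′ UTR share of enriched clusters was 6.70% ± 0.99 in striatum and 6.05% ± 1.5 in cortex and did not pass (exact permutation, p = 0.0792, adjusted p = 0.119).

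By enriched clusters per gene, 221 of 2306 5′ UTRs (9.58%) differed between regions, 150 of them higher in striatum, against 11.9% of all genes and classes. The following genes were again chosen after their values were seen, and those with none in 1 region entered the test only through the other region. Prima1, Arhgdib, Htr1d and Rasgrp2 had enriched 5′ UTR clusters in 8 of 8 NT striatum and 0 of 8 NT cortex libraries, and Brinp3 and Vip, the neuropeptide of a cortical interneuron class, had them in 0 of 8 NT striatum and 8 of 8 NT cortex libraries. In NT cortex, Arhgdib and Rasgrp2 were listed in all 8 libraries and Prima1 and Htr1d in 4 of 8. Mean log2 folds are again means, over libraries that listed a cluster, of the median fold of the gene's listed 5′ UTR clusters. In striatum and cortex they were 1.713 and 1.325 for Arhgdib, 0.713 and -0.222 for Rasgrp2, 1.437 and 1.449 for Prima1, and 2.358 and 2.177 for Htr1d. Brinp3 was not listed in any striatum library, whereas Vip was listed in all 8 with a mean log2 fold of 1.33, against 1.15 in cortex. Prima1 and Rasgrp2, both with fewer enriched clusters in R6/2 striatum, are thus 2 of the genes with more in NT striatum than in NT cortex, and both comparisons share the NT striatum libraries.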

How the data were processed

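The deposited lists give each cluster its chromosome, start, end and strand with a −log10 p and a log2 fold of IP over input, which the authors computed with CLIPper from eCLIP libraries aligned to mm10. Read counts and depth are unknown, the −log10 p is 0 where the log2 fold is 0 or less, and the 70 input samples have no list here. Clusters were classed by midpoint against GENCODE vM21, coding sequence taking precedence over 3′ UTR, that over 5′ UTR, and these over noncoding exons and introns. Distance is the smallest spliced distance to a start over transcripts whose 5′ UTR holds the midpoint. All clusters fell within GRCm38 chromosome lengths on 21 of 21 chromosomes compared, and 2741 m6A clusters outside the 22 main chromosomes were left out of class counts per library.

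Sites, formed from libraries of both genotypes, took per library the log2 fold of the overlapping cluster with the lowest p, shifted so that libraries of a comparison shared 1 median. They were tested with limma 3.58.1 (R 4.3.3, trend, sex as covariate) where at least 6 of 8 libraries per group, or all 3, had a value, with Benjamini-Hochberg adjustment over the sites of all classes. Library shares were compared by exact permutation within sex (4900 labelings) and paired contrasts by exact sign flips, two-sided. Python 3.11.15, pandas 2.3.3 and pysam 0.24.0 were used, and sequences come from the GRCm38 genome. Counts of enriched clusters per gene were divided by median-ratio size factors and tested with limma as log2(count + 0.5). Only genes with an enriched cluster in a share of at least 0.5 of the libraries of a comparison were tested. In the striatum comparison 29 of 50 sites with a simulated shift of 1 and 48 of 50 with a shift of 2 were recovered, and in the ASO comparison 0 of 50 and 17 of 50. The called changes between R6/2 and NT were all smaller than 1, so these rates do not cover changes of their size.

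Sites are named by a rule. Each comparison gave its called sites with the 8 largest increases and the 8 largest decreases, 1 per gene, or the 5 smallest p where under 5 were called. To these were added the 12 highest sites enriched in all 32 libraries, the genes with most sites (ties kept), called sites of listed genes and Tardbp, and 1 gene that the rule names is not reported here. The members, gene lists and tests were chosen with earlier results of these data known. Alternatives changed the threshold, site definition, value per site, centring, covariate, replicate block, distance limit and libraries used.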

Additional observations from a re-analysis of the deposited data

Results flagged for a closer look

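At 3 of the called sites a single library stood apart from the other libraries of its group and sex. Hpf1 had 0.041 in NT cortex female 1, against 0.436 to 0.506 in the other NT cortex females. Rasgrp2 had -0.851 in NT cortex female 4, against -0.24 to -0.125, and Ppp1r1b had 1.309 in NT striatum male 4, against 1.56 to 1.567 in the other males. Of 60 gaps of this kind tested at called sites, chance gives about 1 in 20, and the 32 gaps tested in library shares gave none.

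The Rps15a site, which lies 8 nt from its start and fell in ASO cortex, differed in its R6/2 effect between male and female cortex by -2.744 (SE 0.36, limma interaction adjusted over sites of all classes, 3138 of them in 5′ UTRs, adjusted p = 0.0398). The log2 folds were 0.277, 0.992, -0.091 and 0.348 in R6/2 males, against 2.277, 2.047, 2.453 and 2.015 in NT males, and -0.569, 0.314, 0.358 and -0.415 in R6/2 females, against -1.005, -1.289, -0.458 and -1.267 in NT females. The interval behind the value was 53 to 57 nt long in R6/2 males and 8 to 24 nt in NT males, and 54 to 56 nt in R6/2 females and 45 to 50 nt in NT females. The part of interval length in this difference was not tested, and sex and library batch cannot be told apart.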

How the results depend on the processing

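The 5′ UTR share difference in striatum, R6/2 minus NT, was -0.171 points in males alone, and in cortex it passed with the replicate block (0.748, exact adjusted p = 0.031). The near share (within 100 nt) difference in striatum was -0.074 over listed clusters, -0.622 at the study's thresholds, -1.288 in males and -0.257 with 50 nt, and in cortex it missed the threshold at 1.136 (study's thresholds), 2.197 (no sex strata), 1.803 (males), 2.592 (females) and 1.099 (50 nt). Striatum minus cortex missed it at 3.163 (study's thresholds), 1.236 (males) and 5.684 (females). The fits of males or females alone, with 4 libraries a group, were chosen after seeing the data. The m6A minus TDP-43 share was 1.983 in striatum and 2.178 in cortex over listed clusters, -5.884 in cortex at the study's thresholds, and -1.412 in males and -2.195 in females of striatum. The near share was -18.677 and -18.791 at the study's thresholds and -1.999 and -2.061 with 200 nt in striatum and cortex, 10.824 and 10.915 in males and females of striatum, and 14.361 and 7.522 in cortex.

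Called 5′ UTR sites numbered 0 at the study's thresholds and with the replicate block in each of the 4 comparisons. In striatum, R6/2 minus NT, they were 5 with overlap-weighted means, 0 without the sex covariate and 0 in males or females, and in cortex 5, 0 and 0, with 0 where all 8 values were required. ASO minus PBS gave 1 with sites of 8 libraries and 1 with weighted means. The regions gave 21 without centring, 1 in males and 25 in females. Enriched clusters per gene gave 48, 39, 1024 and 221. The labels do not say whether replicate numbers pair samples, and correlations of noisy site values cannot decide it. Median correlations of same-numbered deviations were 0.006, 0.024, -0.033 and 0.024, and the highest was 0.163, in cortex. A library matched best with its own number in 1 of 8 cases in striatum, 4 of 8 in cortex, 0 of 3 for ASO and 4 of 8 for the regions.

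Leaving out each library in turn gave share differences of 0.048 to 0.417 (striatum), 0.45 to 1.073 (cortex), -1.708 to -1.197 (ASO), 0.354 to 0.95 (regions), -2.004 to -1.549 and -1.228 to -0.632 (m6A minus TDP-43). Near shares gave -0.224 to 0.468, 1.665 to 2.894, -6.062 to -3.637, 2.927 to 4.157, 10.541 to 11.17 and 10.244 to 11.474. Called sites ranged over 0 to 2, 0 to 1, 0 to 1 and 8 to 14. The cortex share passed without R6/2 female 2 or NT male 3. The cause was not tested.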
